A study of Mesocricetus auratus with 6 samples.

Results

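Collagens are the main structural proteins of the extracellular matrix. Each is built from chains that wind into a triple helix, and the chains of 1 molecule are often products of different genes. Fibrillar collagens form the cables of connective tissue, network collagens form the sheet of basement membranes under endothelium and epithelium, and other classes bind to fibrils, form beaded filaments or span the cell membrane. In brain they lie mostly in vessels, meninges and the pial surface, and in liver in the capsule, the portal tracts and the space along the sinusoids. The collagen genes were taken as every row of the gene tables whose symbol has the form *Col*, a number, a and a number, which gave 43 of 31593 genes. There were 11 fibrillar genes, 6 basement membrane genes of type IV, 3 short-chain network genes, 5 beaded filament genes of type VI, 9 fibril-associated (FACIT) genes, 4 transmembrane genes, 2 multiplexin genes and 3 others.

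RNA was sequenced from cortex, suprachiasmatic nucleus (SCN, the brain's circadian pacemaker) and liver of *duper* and wild-type Syrian hamsters at circadian time (CT) 15. *duper* is a recessive frameshift allele of the clock repressor gene *Cry1* that shortens the circadian period, carried here on the Lakeview (LVG) ecotype without the *tau* allele on which it arose. Each of the 6 libraries was 1 genotype and 1 tissue: cortex and SCN libraries were made from mixed tissue or RNA of 4 hamsters, and each liver set merged the reads of 4 hamsters' libraries. All 4 *duper* animals were female, against 2 of the 4 wild-type animals, so effects of sex and of genotype cannot be fully told apart. In the tables each group is a single column, called a library here also for the merged livers, so genotypes stood in as replicates of a tissue and tissues as replicates of a genotype, although the tissues of 1 genotype came from the same hamsters. The total estimated count was 6788947 in wild-type cortex, 10391925 in *duper* cortex, 29936218 in wild-type SCN, 7248840 in *duper* SCN, 69839214 in wild-type liver and 85748562 in *duper* liver.

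*Cry1* itself was at 33.3, 22.9 and 16.8 TPM (a level scaled for transcript length and library total) in wild-type cortex, SCN and liver, and at 8.56, 8.14 and 5.44 TPM in the *duper* libraries. It was lower in *duper* in 3 of 3 tissues (log2 fold change -1.69 ± 0.18 SE, edgeR adjusted p = 0.0437). RNA level does not read the frameshift itself. Markers were read against the tissue labels. The hepatocyte gene *Alb* was at 107273 and 112117 TPM in the liver libraries and at most 112 TPM in brain. Of 5 SCN markers measured, 3 were higher in both SCN libraries than in cortex (*Six6*, *Lhx1* and *Nms*), while *Rorb* was lower, at 17.7 TPM in each against 28.6 and 26.8 TPM, and *Prokr2* was mixed. *Lhx1* was at 7.78 and 4.94 TPM in the SCN libraries and at 0.171 and 0.385 TPM in cortex, and the cortical gene *Tbr1* at 86.7 and 86.8 (cortex) and 7.66 and 10.6 TPM (SCN).

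Collagen RNA added up to between 458 TPM in *duper* liver and 633 TPM in wild-type SCN, and different genes made it up. Liver over brain, the sum was 0.883 in TPM but 2.62 in TMM-normalized counts per kilobase, so its direction turned with the scaling. In liver a pair of genes led: *Col18a1*, a basement membrane multiplexin and the source of endostatin, and *Col27a1*, a fibrillar gene. *Col18a1* had 197 and 234 TPM in the wild-type and *duper* livers, 45.0% of all collagen TPM, and *Col27a1* had 97.4 and 44.0 TPM. *Col3a1*, *Col4a1* and *Col14a1* came next with means of 46.9, 28.3 and 24.5 TPM, and these 5 genes held 80.7% of the collagen TPM of liver. The gap between the genotypes was 53.3 TPM for *Col27a1*, larger than the step from it to *Col3a1*, so the order of those 2 genes was not the same in both livers: in wild type *Col27a1* was above *Col3a1* and in *duper* it was just below.

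The brain regions spread their collagen RNA over more genes. In cortex the basement membrane chains *Col4a2* and *Col4a1* led with means of 81.1 and 43.7 TPM, followed by the fibrillar *Col11a2* with 39.9 TPM and the FACIT genes *Col16a1* and *Col9a3* with 32.6 and 32.5 TPM. In SCN *Col11a2*, *Col16a1* and *Col4a2* stood together at 55.9, 55.4 and 55.3 TPM, closer to each other than the genotypes were, and *Col9a2* and *Col9a3* followed at 44.2 and 42.5 TPM. The first 5 genes held 46.7% of collagen TPM in cortex and 42.9% in SCN. A mean of at least 1 TPM was reached by 38 members in cortex, 40 in SCN and 18 in liver. *Col10a1*, the collagen of growing cartilage, had 0 counts in the 4 brain libraries and 4 and 5 counts in the livers, and was the 1 member too low to be tested.

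**Figure D1:**
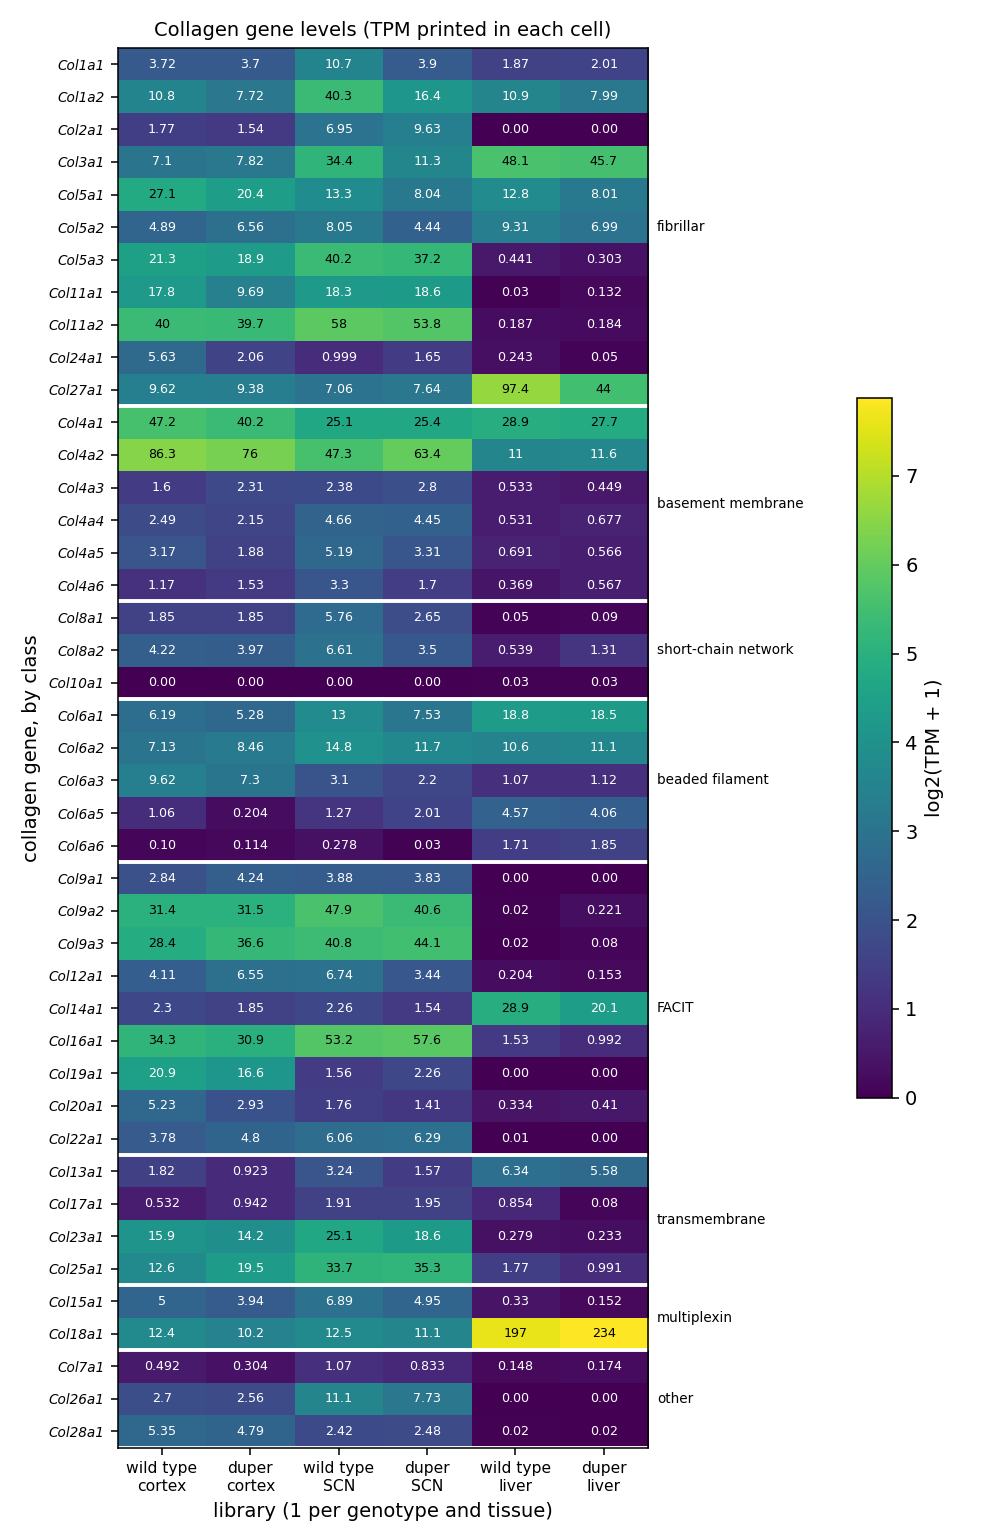
Level of each of the 43 collagen genes (down the side, by class) in each of the 6 libraries (columns), coloured by log2(TPM + 1) with the TPM printed in the cell. *Col18a1* stood at 197 and 234 TPM in liver and between 10.2 and 12.5 TPM in brain, while *Col2a1*, *Col9a1*, *Col19a1* and *Col26a1* were at 0 in both livers.

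By class, the fibrillar genes held between 25.2% and 37.6% of collagen TPM in each library. Basement membrane genes of type IV held 27.7% and 26.3% (wild-type and *duper* cortex), 13.9% and 18.4% (SCN) and 8.44% and 9.08% (liver). FACIT genes held between 25.9% and 29.3% in the 4 brain libraries and 6.22% and 4.80% in the livers. The multiplexins held 39.5% and 51.1% in the livers and at most 3.40% in brain.

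Liver was compared with the mean of cortex and SCN to ask which collagen genes differ between liver and brain. All libraries were bulk tissue, so the brain values are not those of vessels and meninges alone. Of 42 members tested, 13 were higher and 22 lower in liver with edgeR's quasi-likelihood test, at a Benjamini-Hochberg adjusted p under 0.05 over 19780 genes and an absolute log2 fold change over 0.58. Over all genes 33.6% were called higher in liver and 32.6% lower, and among members 31.0% and 52.4%. Some of the lower members passed the filter through brain alone, so their place among the 22 is not read as a test. Among them, *Col2a1*, *Col9a1*, *Col19a1* and *Col26a1* had 0 counts in both livers. *Col8a1*, *Col9a2*, *Col9a3*, *Col22a1* and *Col28a1* had at most 33 in either. The gap in called shares was not tested, and its size depended on scaling. The median log2 fold change was -0.81 over the tested members, also with the genes at 0 in liver set to a floor value, and 0.02 over all genes.

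The size and in part the sign of these values rested on how the libraries were scaled. The 6 hepatocyte markers alone held 122509 and 132580 TPM in the livers. With library size in place of TMM factors the median of all genes moved by -1.24 on the log2 scale, and with limma on log2(TPM + 1) by -1.09. All-gene calls were then 3108 higher against 11471 lower with library size, and 2614 against 12647 with TPM, in place of 6644 against 6445. Members split 9 higher to 28 lower with library size and 8 to 29 with TPM. With TPM, 69.0% of members and 63.9% of all genes were called lower, and 19.0% and 13.2% higher, so most of the gap in lower calls was gone. The distance of the member median from the all-gene median held with library size (-0.84, against -0.83 with TMM). It was smaller with limma on log2(TPM + 1) (-0.38). *Col1a2*, called higher with TMM (0.85), turned to -0.40 with library size and -0.67 with TPM, and *Col5a1* from 0.95 to -0.29 and -0.58. *Col1a1*, not called with TMM, turned likewise and was called lower with library size (-1.04) and with TPM (-1.02). *Col4a1* lost its call with library size (0.10) and turned with TPM (-0.22). Relative to the median of all genes, *Col4a1* was higher by 1.33 with TMM, 1.32 with library size and 0.85 with TPM.

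Among the 11 fibrillar collagens 5 were higher in liver and 5 lower, against 33.6% and 32.6% of all genes. The class was not tested against these shares. *Col27a1* was at 9.62 and 9.38 (wild-type and *duper* cortex), 7.06 and 7.64 (SCN) and 97.4 and 44.0 TPM (liver) (log2 fold change 4.59 ± 0.22, adjusted p = 1.25e-06). *Col3a1*, the fibrillar collagen of vessel walls and reticular fibres, was at 7.10 and 7.82 (cortex), 34.4 and 11.3 (SCN) and 48.1 and 45.7 TPM (liver) (3.46 ± 0.33, adjusted p = 5.54e-05). Both livers were above all 4 brain libraries for either gene. *Col5a2*, which joins type V molecules that nucleate fibrils, was also higher in liver with TMM (1.99 ± 0.22, adjusted p = 0.000135), but its TPM ranges overlapped and the call was lost with TPM (0.41, limma adjusted p = 0.192).

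The other 5 called fibrillar genes were lower in liver. *Col2a1*, the main collagen of cartilage and vitreous, had 735 counts over the brain libraries, 508 of them in wild-type SCN, and 0 over both livers. For pooled counts, scaled by TMM-normalized library sizes, it was at least 288-fold lower in liver, against a floor of 3 counts over both livers. Pooling gives the deepest brain library the most weight, so this is no bound for cortex alone or for the mean of the regions. *Col11a2* was at 40.0 and 39.7 (cortex), 58.0 and 53.8 (SCN) and 0.187 and 0.184 TPM (liver) (-6.41 ± 0.17, adjusted p = 1.18e-07). *Col11a1* and *Col5a3* had log2 fold changes of -6.03 and -4.67, and *Col24a1* had -2.53. Of the chains of type I collagen, the main protein of tendon and scar, *Col1a1* lay between 1.87 and 3.90 TPM in 5 libraries and at 10.7 TPM in wild-type SCN. With TMM its liver to brain difference did not pass (0.21 ± 0.35, adjusted p = 0.613), while it was called lower with library size and TPM, as given above.

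The chains of type IV collagen, the scaffold of every basement membrane, changed their balance between tissues. *Col4a1* and *Col4a2* assemble together with 2 chains of the first to 1 of the second. *Col4a1* was at 47.2 and 40.2 (cortex), 25.1 and 25.4 (SCN) and 28.9 and 27.7 TPM (liver). *Col4a2* was at 86.3 and 76.0 (cortex), 47.3 and 63.4 (SCN) and 11.04 and 11.6 TPM (liver). The TPM ratio of *Col4a1* to *Col4a2* was thus 0.547 and 0.529 (cortex), 0.531 and 0.401 (SCN) and 2.62 and 2.39 (liver). This ratio does not depend on library scaling, and the 2 livers did not overlap the 4 brain libraries. The fitted log2 fold changes were 1.34 ± 0.12 for *Col4a1* (adjusted p = 4.27e-05, turned with TPM as given above) and -0.99 ± 0.16 for *Col4a2* (adjusted p = 0.000916). The minor chains of kidney and lung type basement membrane, *Col4a3* to *Col4a6*, lay between 1.17 and 5.19 TPM in brain and between 0.369 and 0.691 TPM in liver, with *Col4a4* and *Col4a5* called lower in liver.

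Beaded filament genes of type VI collagen, which link basement membrane to fibrils, were called higher in liver for 4 of 5 members and lower for none, at adjusted p values under 0.05 by edgeR. Over all genes 33.6% were called higher, or 15.7% with library size, and the class was not tested against these shares. With library size the split was 3 to 1: *Col6a2* lost its call (1.65 with TMM, 0.41 with library size) and *Col6a3* was called lower (-1.80). *Col6a1* was at 6.19 and 5.28 (cortex), 13.0 and 7.53 (SCN) and 18.8 and 18.5 TPM (liver) (2.87 ± 0.20, adjusted p = 9.03e-06). *Col6a6* lay between 0.0279 and 0.278 TPM in brain and at 1.71 and 1.85 TPM in liver. It had 3 and 3 counts in wild-type and *duper* cortex and 42 and 1 in SCN. Without the livers it did not pass the filter, so its place among the 4 called genes is not read as a test. *Col6a5* reached 4.57 and 4.06 TPM in liver (3.76 ± 0.41, adjusted p = 0.000118). The third chain of the standard molecule, *Col6a3*, departed from its partners: it was at 9.62 and 7.30 (cortex), 3.10 and 2.20 (SCN) and 1.07 and 1.12 TPM (liver). Its difference did not pass the fold threshold (-0.56 ± 0.21). Its TPM ratio to *Col6a2* ran from 1.35 and 0.863 in cortex through 0.209 and 0.188 in SCN to 0.101 in each liver.

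FACIT collagens, which sit on the surface of fibrils, were lower in liver for 8 of 9 members. Over all genes 32.6% were called lower, or 58.0% with library size, and the class was not tested against these shares. *Col9a1*, *Col9a2*, *Col9a3*, *Col19a1* and *Col22a1* passed the filter through brain alone, so the count of 8 is not read as a test. The exception was *Col14a1*, at 2.30 and 1.85 (cortex), 2.26 and 1.54 (SCN) and 28.9 and 20.1 TPM (liver) (5.15 ± 0.13, adjusted p = 1.13e-07). *Col19a1* and *Col9a1* had 0 counts in liver. They were at least 738-fold and 146-fold lower there for pooled brain counts, by the same floor and scaling. *Col22a1* had 3 counts over both livers and 928 over the brain libraries. After that scaling the ratio was 363, with a 95% counting interval from 124 to 1766. *Col9a2* was at 31.4 and 31.5 (cortex), 47.9 and 40.6 (SCN) and 0.025 and 0.221 TPM (liver) (-6.58 ± 0.56, adjusted p = 3.02e-05). *Col9a3*, a partner chain of type IX collagen, was at 28.4 to 44.1 TPM in brain and 0.019 and 0.078 TPM in liver (-7.90 ± 0.35, adjusted p = 9.34e-07). The TPM ratio of *Col9a3* to *Col9a2* lay between 0.852 and 1.16 in the brain libraries, whereas *Col9a1* stayed at or under 0.134 of *Col9a2*.

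The multiplexins split. *Col18a1* was higher in liver (5.97 ± 0.20, adjusted p = 2.24e-07), and *Col15a1* was at 3.94 to 6.89 TPM in brain and 0.330 and 0.152 TPM in liver (-2.91). *Col18a1* also differed in its transcripts. A transcript of 5097 bases held between 86.4% and 97.0% of *Col18a1* TPM in the brain libraries, at 8.85 to 12.0 TPM. In liver it was at 22.0 and 40.0 TPM, while 3 longer transcripts of 5881 to 6633 bases held 175 and 194 TPM, or 88.8% and 82.9%. These longer transcripts were at 0.372 to 1.39 TPM in brain. Kallisto shares reads between overlapping transcripts by likelihood, so a split among transcripts is less certain than the sum over the gene.

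**Figure D2:**
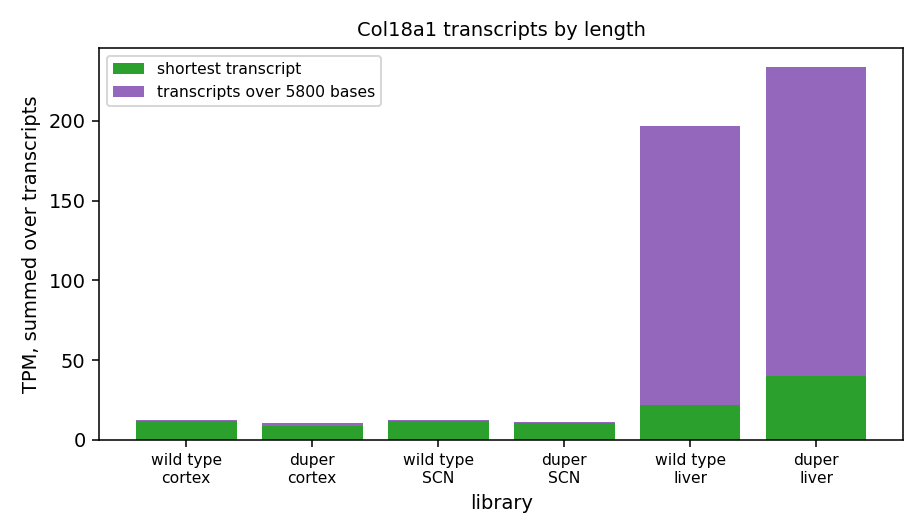
*Col18a1* level in TPM (vertical axis) in each library (horizontal axis), stacked by transcript length, with the shortest transcript in green and the 3 longer ones in purple. The longer transcripts made up 175 and 194 TPM in the livers and at most 1.39 TPM in the brain libraries.

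Of the remaining classes, the transmembrane gene *Col13a1* was higher in liver (3.33 ± 0.30, adjusted p = 3.86e-05), while *Col23a1* and *Col25a1*, the latter known for binding amyloid, were lower (-4.57 and -2.54). The fourth transmembrane gene, *Col17a1* of hemidesmosomes, was not called (-0.24 ± 0.79). Of the short-chain genes, *Col8a1* of vessel and corneal basement membranes was lower in liver (-3.62) and *Col8a2* was not called. Of the others, *Col26a1* had 550 counts over the brain libraries, 428 of them in wild-type SCN, and 0 in liver. For pooled counts, scaled by TMM-normalized library sizes, it was at least 215-fold lower, which is no bound for cortex alone or for the mean of the regions. *Col28a1* was lower too (-5.88). *Col7a1*, the anchoring fibril collagen of skin, was not called and stayed at or below 1.07 TPM in every library.

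Cell type markers stood beside these tissue differences. The 8 hepatic stellate cell markers added up to 76.8 and 68.6 TPM in the livers and between 67.2 and 92.6 TPM in the brain libraries, where *Pdgfra* and *Reln*, also genes of brain cells, made up most, while *Lrat* was at 3.34 and 2.85 TPM in liver and at most 0.67 TPM in brain. The 9 measured markers of meningeal and perivascular fibroblasts added up to between 1348 and 5474 TPM in brain, most of it *Ptgds*, and to 98.0 and 106 TPM in liver, most of it *Dcn*, with *Slc22a6* and *Slc22a8* at or near 0. The 5 measured brain endothelium markers added up to 344 to 391 TPM in brain and 65.8 and 26.9 TPM in liver, most of it *Itm2a*, with *Cldn5* at 1.16 and 0.49 TPM. Other endothelial lists went the other way. The 6 pan-endothelial markers added up to 56.3 to 66.8 TPM in brain and 86.0 and 82.2 TPM in liver. The 6 markers of liver sinusoidal endothelium added up to 43.6 to 50.8 TPM in brain and 306 and 257 TPM in liver. In bulk tissue, fewer cells of a type and less RNA per cell cannot be told apart, and the part of cell makeup in the collagen differences was not tested.

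Genes that make, process and bind collagen were also read from lists. Over all genes 33.6% were called higher in liver and 32.6% lower, or 15.7% and 58.0% with library size, and no list was tested against these shares. Of 19 tested genes for synthesis and folding, 11 were higher and 5 lower in liver (4 and 7 with library size in place of TMM). *P4hb*, the shared subunit of prolyl 4-hydroxylase, was at 78.9 to 110 TPM in brain and 513 and 730 TPM in liver (4.34 ± 0.21, adjusted p = 1.33e-06), while *P4ha3*, a catalytic subunit, was lower (-2.20). Of 12 tested genes for processing and cross-linking, 7 were higher and 2 lower (3 and 4 with library size), with *Pcolce*, an enhancer of procollagen C-proteinase, at 11.3 to 39.6 TPM in brain and 126 and 238 TPM in liver (4.76 ± 0.30).

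Of 9 proteins that bind fibrils, 4 were higher and 3 lower in liver (3 and 5 with library size): fibronectin, *Fn1*, was at 20.4 to 61.0 TPM in brain and 297 and 703 TPM in liver (5.48 ± 0.44). Basement membrane partners were mostly lower in liver, 8 of 14 tested against 3 higher (11 and 2 with library size). The laminin chain gene *Lama1* was at 3.23 to 8.75 TPM in brain and 0.058 and 0.032 TPM in liver (-5.34 ± 0.25), whereas *Nid1* and the perlecan gene *Hspg2* were higher (2.78 and 2.63). Of 9 receptors, 3 were higher and 4 lower (1 and 6 with library size), among them the integrin *Itga1* (3.54) and the discoidin receptor *Ddr1* (-3.09). These counts stand against 33.6% of all genes higher and 32.6% lower, or 15.7% and 58.0% with library size. A difference from those shares was not tested. Of 10 genes of collagen breakdown, 5 were higher and 2 lower (4 and 3 with library size): the collagenase *Mmp13* was at 24.4 and 23.0 TPM in liver and at most 0.191 TPM in brain, and the inhibitors *Timp4* and *Timp2* were lower in liver (-5.55 and -3.41).

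SCN and cortex were compared in the same fit to ask whether the collagens differ within brain. Members were called higher in SCN for 6 of 42 and lower for 4, against 3.77% and 6.8% of all genes. With library size in place of TMM the all-gene calls were 1426 higher against 1069 lower in place of 745 against 1346, the median of all genes moved by 0.16, and members were 12 against 4. The median log2 fold change was 0.53 over tested members and 0.03 over all genes.

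The genes higher in SCN came from several classes. *Col2a1* was at 1.77 and 1.54 (cortex) and 6.95 and 9.63 TPM (SCN) (2.32 ± 0.37, adjusted p = 0.0139). *Col26a1* was at 2.70 and 2.56 (cortex) and 11.1 and 7.73 TPM (SCN) (1.82 ± 0.40, adjusted p = 0.0416). *Col1a2* was at 10.8 and 7.72 (cortex) and 40.3 and 16.4 TPM (SCN) (1.55 ± 0.27, adjusted p = 0.0123). In each of these genes both SCN libraries lay above both cortex libraries. *Col25a1*, *Col5a3* and *Col16a1* were higher by 1.11, 0.95 and 0.77 on the log2 scale, with adjusted p values of 0.0434, 0.00724 and 0.0277.

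*Col19a1*, a FACIT gene known in interneurons that form synapses, was at 20.9 and 16.6 (cortex) and 1.56 and 2.26 TPM (SCN) (-3.33 ± 0.27, adjusted p = 0.00136). The other members lower in SCN were *Col6a3* (-1.65 ± 0.25, adjusted p = 0.00766), *Col5a1* (-1.17 ± 0.15, adjusted p = 0.00366) and *Col4a1* (-0.78 ± 0.15, adjusted p = 0.0179). *Col5a1* was at 27.1 and 20.4 (cortex) and 13.3 and 8.04 TPM (SCN).

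With 1 library per genotype, these counts moved with the libraries in the fit. Without the wild-type cortex library 1 member was higher and 1 lower (0.356% and 1.31% of all genes), and without the *duper* cortex library 0 and 1 (0.574% and 1.89%). Without the wild-type SCN library there were 0 and 3 (1.02% and 2.85%), and without the *duper* SCN library 5 and 4 (2.64% and 3.98%). Leaving out the wild-type liver library gave 15 and 7 (8.47% and 10.4%), and leaving out the *duper* liver library 14 and 7 (8.14% and 10.3%). *Col19a1* was called lower in SCN in each of the 6 fits that left out a library.

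Markers of other cells differed between the regions too. Of the 9 measured markers of meningeal and perivascular fibroblasts, 3 were called higher in SCN and none lower (*Slc6a13*, *Aldh1a2* and *Ptgds*), and their sum was 1348 and 1660 TPM in cortex and 5474 and 2971 TPM in SCN. Of the 9 pericyte and smooth muscle markers 3 were higher and 1 lower, with sums of 189 and 160 TPM in cortex and 241 and 196 TPM in SCN, led by *Rgs5* in cortex and SCN. Of 5 choroid plexus markers, 2 were called lower in SCN (*Ttr* and *Otx2*) and none higher. *Ttr* was at 1837 and 2505 (cortex) and 165 and 24.1 TPM (SCN). Of 5 neuron markers, 3 were lower in SCN. The part of these markers in the collagen differences was not tested.

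In the lists, SCN was higher for 3 genes of processing and cross-linking and lower for 2, *Adamts3* (-3.85 ± 0.29) and *Bmp1* (-1.43 ± 0.20), which trim procollagen. It was higher for *Sparc* (2.81 ± 0.18) and *Ogn* (2.07 ± 0.41) among fibril-binding proteins, for *Lama1* (1.11 ± 0.21) among basement membrane partners, and for *Ctsk*, *Timp4* and *Timp2* among genes of breakdown. *Sparc* was at 222 and 264 (cortex) and 1718 and 1647 TPM (SCN). For synthesis and folding 0 of 19 genes passed and for receptors 0 of 9 by edgeR, and DESeq2 called 2 and 1. In each of these lists 4 genes had an unadjusted p under 0.05, against 25.9% of all genes. Over all genes edgeR called 3.77% higher in SCN and 6.8% lower, or 7.21% and 5.40% with library size. With library size in place of TMM, edgeR called 2 genes of synthesis, 4 of processing, 5 fibril-binding proteins, 2 basement membrane partners, 3 receptors and 4 genes of breakdown higher in SCN, and 2 of processing lower.

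*duper* was compared with wild type over the 3 tissues, adjusted for tissue. The study also adjusted for tissue but used DESeq2, which is an alternative here beside the main edgeR fit. By edgeR 0 of 42 members were called, against 0.0202% of all genes higher (4 genes) and 0.0556% lower (11 genes). DESeq2, with 26 higher and 15 lower over all genes, called 0 members, as did the likelihood ratio test and limma. At an unadjusted p under 0.05 there were 4 members by edgeR (9.52%, against 3.52% of all genes), 2 by DESeq2 and 2 by limma. The median log2 fold change was -0.18 over the members, 29 of which were below 0, and 0.01 over all genes, 47.8% of which were below 0. The member median moved to -0.049 without the wild-type SCN library and -0.047 without the *duper* SCN library, with 23 members below 0, and to -0.26 and -0.27 without the wild-type and *duper* liver libraries.

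The 4 members at an unadjusted p under 0.05 had lower values in *duper*. *Col5a1* was at 27.1, 13.3 and 12.8 TPM in wild-type cortex, SCN and liver and at 20.4, 8.04 and 8.01 TPM in *duper*, lower in 3 of 3 tissues (-0.56 ± 0.12, edgeR adjusted p = 0.527). *Col1a2* was at 10.8, 40.3 and 10.9 TPM in wild type and 7.72, 16.4 and 7.99 TPM in *duper* (-0.70 ± 0.21). *Col14a1* and *Col15a1* had -0.40 ± 0.13 and -0.59 ± 0.24, and the adjusted p of these 3 genes was 1. Without the *duper* liver library *Col1a2* passed (-1.02 ± 0.16, adjusted p = 0.0194), and it missed without both liver libraries (-0.98, adjusted p = 0.0523). At an unadjusted p under 0.05 there were then 11 and 12 members, 12 without the wild-type liver library, and 2 without either SCN library or both. These counts were not set against all genes in the same fits, so they are not read as a result about the members.

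The lowest fold changes were those of *Col17a1* (-0.89 ± 0.78) and *Col24a1* (-0.88 ± 0.55), and the highest those of *Col9a3* (0.32 ± 0.23), *Col9a1* (0.23 ± 0.42), *Col4a3* (0.21 ± 0.25), *Col9a2* (0.19 ± 0.39) and *Col2a1* (0.17 ± 0.36), none of which passed. In the 6 lists of other matrix genes edgeR and DESeq2 called 0 genes, and at an unadjusted p under 0.05 there were *Tnxb*, *Lama4*, *Nid2* and *Itga10*.

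Within a tissue each genotype had 1 library, so no test was made, and values are the log2 ratio of TPM plus 1, for members with a mean of at least 1 TPM. The 95% Clopper-Pearson intervals are those of the ratio without a pseudocount, so they are not centred on the printed values. They cover counting error only. In SCN 11 of 40 members were lower in *duper* past 0.58 and none higher, against 7.7% of all genes lower and 6.67% higher. In cortex 3 of 38 members were lower and 1 higher, against 7.75% and 8.24%. In liver 2 of 18 members were lower and none higher, against 10.5% and 4.75%. For cortex, SCN and liver the member medians were -0.14, -0.18 and -0.10, where all genes had 0.02, 0.02 and -0.10.

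**Figure D3:**
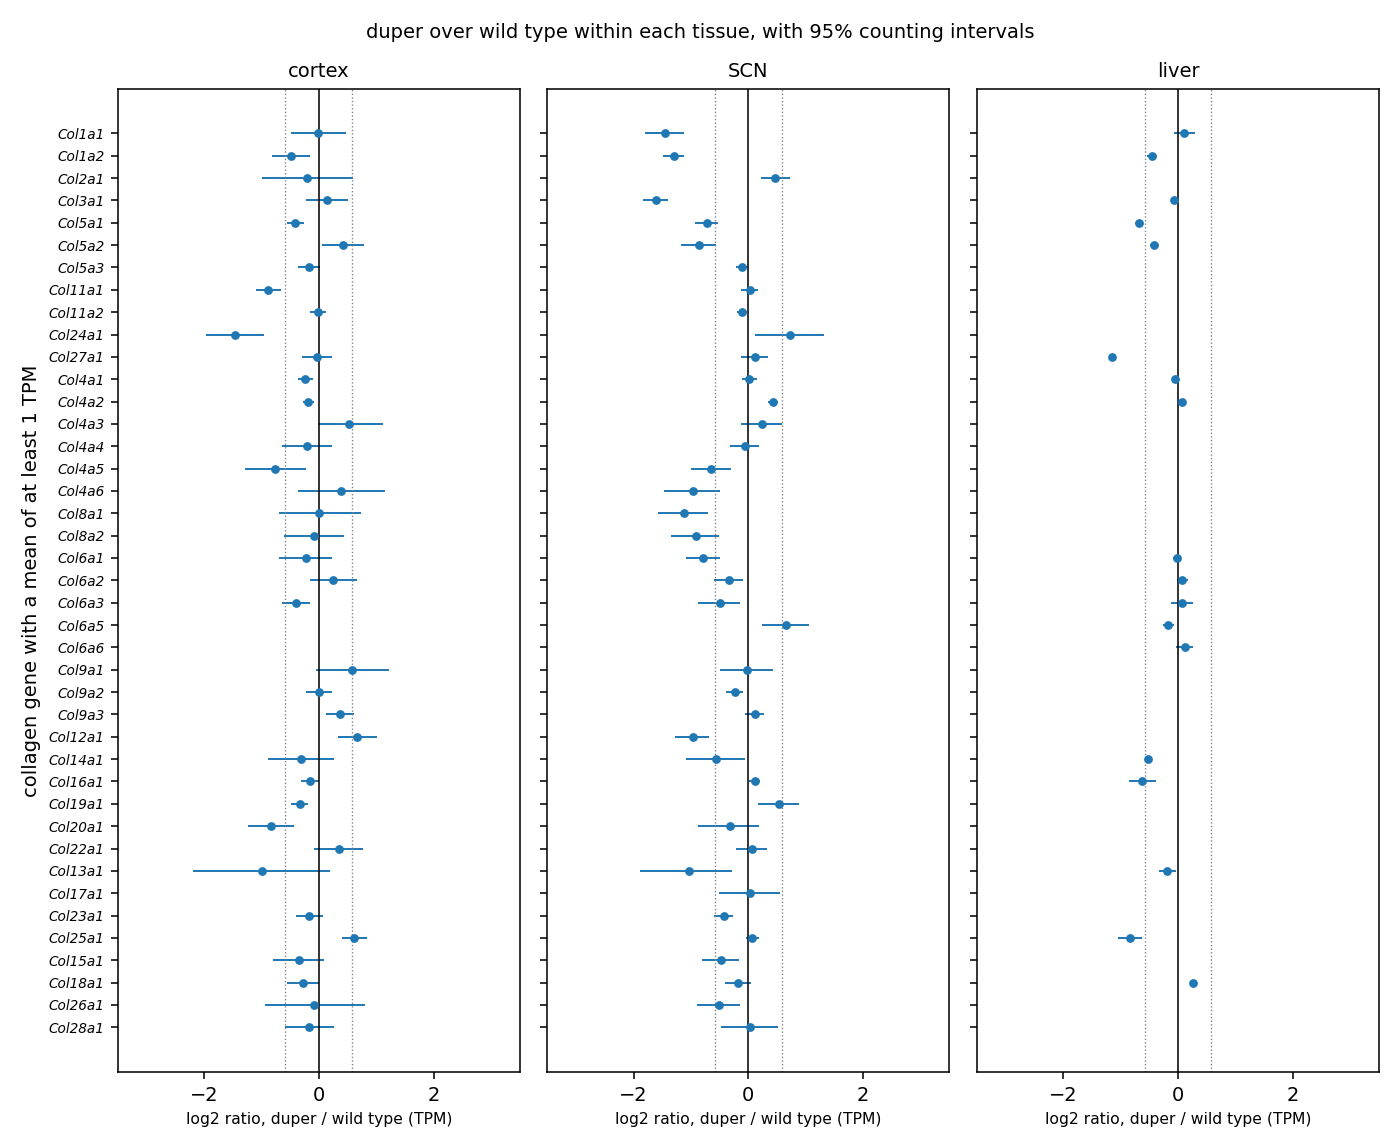
Log2 ratio of TPM, *duper* over wild type (horizontal axis, no pseudocount), for each collagen gene with a mean of at least 1 TPM (vertical axis) in cortex, SCN and liver, 1 library per genotype. Bars are 95% counting intervals and dotted lines mark 0.58 in either direction; *Col1a1*, *Col1a2* and *Col3a1* lay to the left in SCN, and *Col27a1* in liver.

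In SCN the lowest ratios were those of the fibrillar genes *Col3a1*, *Col1a1* and *Col1a2*. *Col3a1* was at 34.4 and 11.3 TPM in the wild-type and *duper* libraries (log2 ratio -1.53, interval -1.83 to -1.40), *Col1a1* at 10.7 and 3.90 TPM (-1.26, interval -1.80 to -1.13) and *Col1a2* at 40.3 and 16.4 TPM (-1.25, interval -1.48 to -1.11). The others past 0.58 were *Col8a1* (-0.89), *Col12a1* (-0.80), *Col8a2* (-0.76), *Col5a2* (-0.73), *Col13a1* (-0.72), *Col6a1* (-0.71), *Col4a6* (-0.67) and *Col5a1* (-0.66), each with an interval below 0. Other fibrillar genes did not share this, such as *Col11a1* (18.3 and 18.6 TPM) and *Col27a1* (7.06 and 7.64 TPM). *Col4a1* had 25.1 and 25.4 TPM, *Col11a2* 58.0 and 53.8 TPM, and *Col16a1* 53.2 and 57.6 TPM.

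Markers of meningeal and perivascular fibroblasts were lower as well. All 9 measured markers were lower in *duper* SCN past 0.58, and their summed level was 5474 and 2971 TPM, against 1348 and 1660 TPM in cortex. The most abundant, *Ptgds*, was at 5043 and 2802 TPM. *Slc6a13* was at 148 and 65.3 TPM, *Aldh1a2* at 48.7 and 21.5 TPM and *Foxc1* at 12.6 and 7.30 TPM. The list shares *Dcn* and *Lum* with the fibril-binding proteins, of which 8 of 9 were lower in *duper* SCN, with a median of -1.08. Of 4 choroid plexus markers 2 were lower (*Ttr* at 165 and 24.1 TPM, *Kcnj13* at 11.6 and 2.10 TPM) and 2 higher, and 4 of 5 SCN markers were lower, with a sum of 76.2 and 43.4 TPM (*Nms* at 33.5 and 13.4 TPM, *Prokr2* at 8.42 and 1.37 TPM). The erythroid gene *Alas2* (17.4 and 5.50 TPM) was lower too, as it was in *duper* cortex (6.48 and 2.83 TPM) and liver (14.9 and 7.52 TPM). Of 9 pericyte and smooth muscle markers 5 were lower, *Vtn* (50.5 and 27.3 TPM) and *Acta2* (39.1 and 25.2 TPM) past 0.58, and 4 higher, with a median of -0.06. The 6 pan-endothelial markers added up to 57.2 and 56.3 TPM, and 5 of 5 neuron markers were higher in *duper*. The 5 brain endothelium markers added up to 390 and 344 TPM, with 3 higher and 2 lower in *duper*. Of these, *Itm2a* was lower past 0.58 (155 and 98.5 TPM). The 4 measured oligodendrocyte lineage markers were lower, 0 of them past 0.58, and of 3 astrocyte markers 2 were higher and 1 lower. The part of these markers in the collagen difference was not tested.

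**Figure D4:**
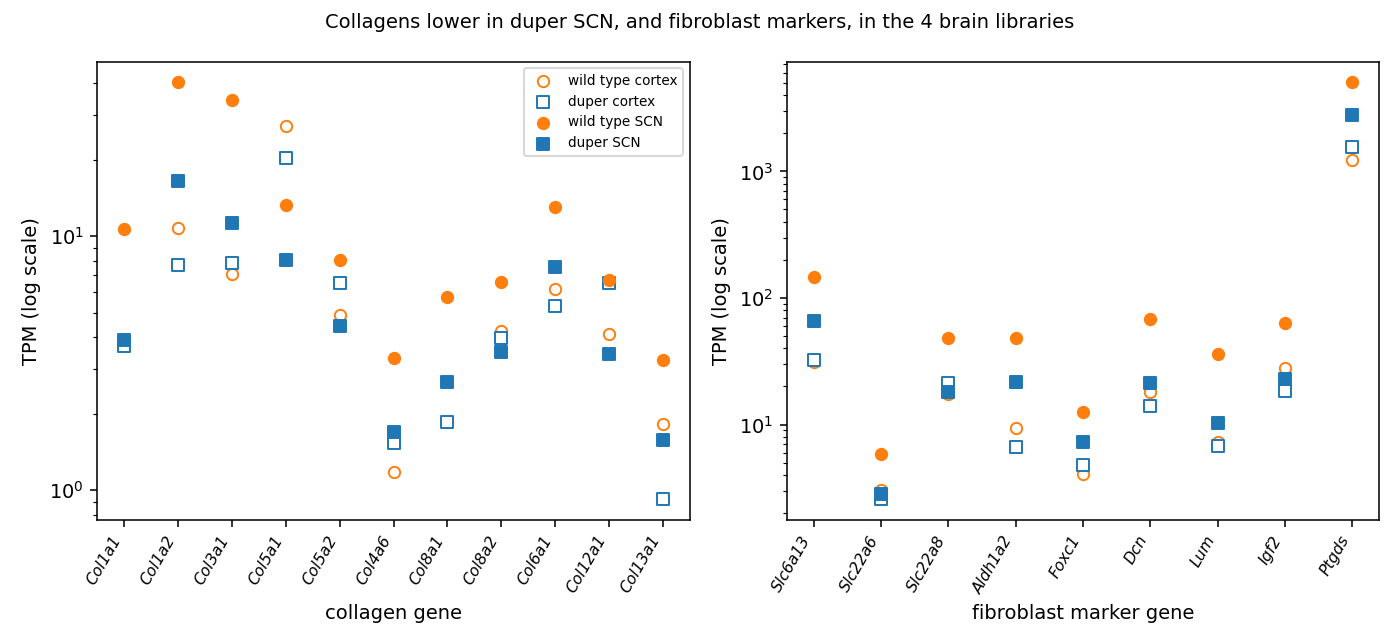
TPM on a log scale (vertical axes) of the 11 collagen genes lower in *duper* SCN past 0.58 (left) and of the 9 measured meningeal and perivascular fibroblast markers (right) in the 4 brain libraries. The collagens on the left were picked for lying lower in *duper* SCN (filled squares) than in wild-type SCN (filled circles). Their order is therefore fixed by that choice, as for *Col3a1* at 34.4 and 11.3 TPM (wild type first). On the right the 9 markers had the same order, as for *Dcn* at 68.4 and 21.2 TPM.

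In liver *Col27a1* was at 97.4 and 44.0 TPM, wild type first (log2 ratio -1.13, interval -1.17 to -1.12), on 28962 and 16332 counts, and *Col5a1* at 12.8 and 8.01 TPM (-0.62, interval -0.74 to -0.61). *Col18a1* was at 197 and 234 TPM, and the type I, III and IV chains differed by less than 0.58. The summed stellate cell markers were 76.8 and 68.6 TPM. In cortex *Col24a1* (5.63 and 2.06 TPM, -1.12), *Col11a1* (17.8 and 9.69 TPM, -0.81) and *Col20a1* (5.23 and 2.93 TPM, -0.66) were lower in *duper*, and *Col25a1* was higher (12.6 and 19.5 TPM, 0.58).

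Whether the *duper* effect differed between tissues was tested after these values were seen, by the difference between 1 tissue and the other 2 in the edgeR fit. The tissue in question is then 1 library against 1 and is fitted exactly. The p-values take their spread from the other 2 tissues and do not cover the spread between libraries of that tissue. For liver 4 of 42 members passed, against 3.04% of all genes. For SCN and cortex 0 members passed, and over all genes the share called was 0% for either tissue. At an unadjusted p under 0.05 there were 16 members for liver (38.1%, against 15.9% of all genes), 6 for SCN (14.3% against 2.52%) and 2 for cortex (4.76% against 1.53%). DESeq2 called 2 members for liver and 0 for SCN and cortex. *Col3a1* had the lowest p for SCN (difference -1.74 ± 0.33, adjusted p = 0.436), and the likelihood ratio test called it. No difference between tissues in the *duper* effect is taken as established from these values.

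Several members stand next to each other in the annotation, in pairs with no protein-coding gene between them. They include *Col4a1* and *Col4a2*, *Col4a3* and *Col4a4*, *Col4a5* and *Col4a6*, *Col3a1* and *Col5a2*, *Col6a1* and *Col6a2*, *Col6a5* and *Col6a6*, and *Col9a1* and *Col19a1*. Neighbours did not always move together. *Col4a1* and *Col4a2* had log2 fold changes of 1.34 and -0.99 in liver against brain, and *Col9a1* and *Col19a1* had 0.16 and -3.33 in SCN against cortex. *Col3a1* and *Col5a2* were both higher in liver, at 3.46 and 1.99.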

How the data were processed

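The authors quantified transcripts with Kallisto (version not given in the sources used here) against MesAur2.0 from stranded mRNA libraries and summed them per gene with tximport. The deposited tables used here hold Kallisto estimated counts without normalization. A further deposited table holds TPM for the same genes, and both units were also read for 67818 transcripts. Of 31593 symbols, 31590 matched the BCM_Maur_2.0 annotation, used only for names and neighbours.

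Members and gene lists were chosen with earlier results of these data known. Estimated counts were rounded and fitted in edgeR 4.0.16 (R 4.3.3; TMM, filterByExpr by tissue, quasi-likelihood F test, tissue and genotype terms, 2 residual degrees of freedom); 19780 genes and 42 of 43 members passed the filter. Common dispersion was 0.0351 and TMM factors ran from 0.532 to 1.42. Standard errors were taken as |log2 fold change| divided by the root of F. p-values measure the spread between these 6 pooled libraries. For a difference between tissues, 1 residual degree of freedom remained, and the tissue tested was assumed to vary like the others. For 6 members (*Col15a1*, *Col23a1*, *Col4a3*, *Col6a5*, *Col6a6* and *Col8a1*) some counts were not whole (tolerance 0.01), since reads were shared with other transcripts.

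Members named with statistics were the 8 highest and 8 lowest called in each tissue contrast, those at an unadjusted p under 0.05 or among the 5 highest and lowest in *duper* against wild type, those past 0.58 within a tissue with a counting interval that left out 0, the top 5 per tissue, and partner chains. Up to 6 genes per list were named; genes and members named beyond these were chosen after their values were seen. Alternatives were DESeq2 1.42.0 with size factors or length offsets, limma 3.58.1 on log2(TPM + 1), library size, other filters, no fold threshold, the likelihood ratio test, terms or libraries left out, and, within a tissue, a pseudocount of 0.1, TMM-normalized CPM, rescaled TPM and no minimum; the test of a difference between tissues was added after seeing the data. Intervals came from scipy 1.17.1, plots from matplotlib 3.10.9, with Python 3.11.15, numpy 2.4.6 and pandas 2.3.3. The steps were tested on simulated data.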

Additional observations from a re-analysis of the deposited data

Results flagged for a closer look

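For 4 collagen genes the liver ratio of *duper* to wild type passed the thresholds for a difference from the 2 brain regions in an edgeR fit added after the data were seen. That fit takes its spread from the brain libraries alone, since liver is 1 library against 1, so the values below are given without p-values and a difference is not established. *Col27a1* was at 97.4 and 44.0 TPM in wild-type and *duper* liver and between 7.06 and 9.62 TPM in the brain libraries, a difference of -0.97 on the log2 scale. *Col17a1* had 195 and 23 counts in wild-type and *duper* liver, or 0.854 and 0.081 TPM, a difference of -3.49. DESeq2 called neither gene.

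*Col9a2* had 3 and 33 counts in wild-type and *duper* liver, a *duper* to wild-type TPM ratio of 8.84 with a 95% counting interval from 2.77 to 45.0, and a difference of 3.40. *Col11a1* had 8 and 47 counts in the livers and 17.8, 9.69, 18.3 and 18.6 TPM in the brain libraries, a difference of 2.82, which did not pass with library size in place of TMM. Of these genes *Col27a1* alone had a mean of at least 1 TPM in liver. Each liver value is 1 merged library, and sex, which differed in part between the genotypes, was not tested.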

How the results depend on the processing

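In liver against brain, the 8 highest and 8 lowest called members kept their direction and their call in each fit that tested them. Others did not: *Col4a1*, *Col5a1*, *Col1a2*, *Col5a2* and *Col6a2* lost the call or turned with library size or TPM. Members higher in liver were 13, and 8 with limma on log2(TPM + 1). The summed collagen level in liver over brain was 0.883 in TPM and 2.62 in TMM-normalized counts per kilobase. In SCN against cortex, 6 members were higher, 12 with library size and 10 with the likelihood ratio test, and leaving out 1 library gave 0 to 15 higher and 1 to 7 lower. Of single genes there, 32 values lost the call, 31 of them in fits that left out a brain library. For *duper* against wild type, leaving out the *duper* liver gave 1 member lower, so the range was 0 to 1. Gene directions turned there, none of them called. Leaving out 1 library gave -1.57 to 0.30 for *Col17a1*, with values above 0 without either liver library, and 0.29 without both. It gave -0.23 to 0.44 for *Col2a1*, below 0 without either SCN library, and -0.21 without both. It gave -0.048 to 0.53 for *Col9a1*, below 0 without either cortex library, and -0.093 without both. It gave -0.15 to 0.68 for *Col9a2*, below 0 without either liver library, with -0.15 without both and -0.15 without the tissue term. Within cortex, 2 members were higher and 5 lower with a pseudocount of 0.1, 0 and 5 with TMM-normalized CPM, and 0 higher with rescaled TPM. Within SCN 2 were higher with a pseudocount of 0.1, and 11 to 12 were lower under each alternative. Within liver 1 was lower with rescaled TPM, and without a minimum TPM 1 was higher and 3 lower; 3 were lower with a pseudocount of 0.1. For the *duper* effect in liver against brain, the likelihood ratio test called 7 members and DESeq2 2, in place of 4, and for SCN the likelihood ratio test called 1. The cause of these changes was not tested. The tissue and genotype terms pair the libraries of a tissue and of a hamster pool, and no further replicate block could be fitted with 1 library per group. Low counts limit *Col6a6*, *Col17a1* and *Col7a1* in brain, and cortex and *duper* SCN were the shallowest libraries.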
